A study of Bos taurus with 11 samples.

Results

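The 9 genes described here encode adenylate kinases (AK3, AK4 and AK6) and enzymes that build purine nucleotides (PRPS1, PRPS2, GART, PAICS, ATIC and IMPDH2). They were chosen by name from 12056 RefSeq transcripts listed in either of the 2 expression tables, with their differences between knockout (KO) and control embryos already known. Those differences are therefore given as a description, with no p-value. Whether a gene met the threshold used for all transcripts is stated only to place it among them. Each gene was matched to 1 transcript, and all 9 were listed in both tables. The data came from single bovine blastocysts produced in vitro and collected on day 7 after fertilization, at the early blastocyst stage. All embryos, controls included, had been injected at the zygote stage with mRNA for BE3, a cytosine base editor that can turn codons into stop codons without cutting both DNA strands. The 3 wild-type (WT) control embryos received BE3 mRNA alone. The 4 GATA3 KO embryos also received a mix of single guide RNAs (sgRNAs) against GATA3, and the 4 CDX2 KO embryos received a mix against CDX2. GATA3 and CDX2 are transcription factors of the trophectoderm, the outer cell layer of the blastocyst, and the comparisons asked what their loss changed. Editing in a zygote can leave a mosaic embryo, and the genotype of each sequenced embryo was not used here. Each embryo gave 1 polyadenylated RNA library, so each replicate is a separate embryo. KO embryos are numbered here by data column, and those numbers do not match the replicate labels in full.

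Purine nucleotides are built on a ribose phosphate. PRPS1 and PRPS2 make the activated sugar, phosphoribosyl pyrophosphate, which pyrimidine and salvage pathways use as well. GART, PAICS and ATIC are multifunctional enzymes that then assemble the purine ring up to inosine monophosphate, and IMPDH2 commits inosine monophosphate to guanine nucleotides. Adenylate kinases move phosphate groups between adenine nucleotides. AK4 and AK3 are mitochondrial matrix enzymes, and AK3 prefers GTP as its phosphate donor. AK6 is a nuclear protein that also acts in ribosome assembly. Cleavage embryos start with nucleotides and transcripts supplied by the oocyte and come to depend on their own synthesis as cell number grows.

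Values are normalized counts, which are read counts divided by a size factor for each embryo. The WT control embryos were shared by both tables, but each table was normalized on its own and the same control embryo held 1.77 to 1.86 times as many counts in the table with CDX2 KO. Levels are therefore compared within a table only. Summed counts per embryo were 150057 to 540775 in the table with GATA3 KO and 100731 to 662962 in the table with CDX2 KO, where embryo 3 of the CDX2 KO group was the shallowest library. A count of 3, taken as the limit that a count of 0 allows, equalled 1.29 to 4.66 normalized counts in the first table and 1.61 to 6.99 in the second. These limits cover counting error only, because the libraries had no molecular identifiers. Why the same controls held more counts in the table with CDX2 KO is not given in the sources used here. Limits and counting spreads in that table rest on those larger counts and may be too small. GATA3 fell from 79.9 ± 8.17 (SD, n = 3) to 12.2 ± 1.58 (SD, n = 4) normalized counts in GATA3 KO embryos, a log2 fold change of -2.62 (limma, adjusted p = 7.64e-05). CDX2 averaged 8.94 ± 2.09 normalized counts (SD, n = 3) in the controls and 3.57 ± 1.34 (SD, n = 4) in CDX2 KO embryos, which were all below the controls (p = 0.0286, 2-sided, from an exact permutation test, the least that its 35 splits can give). CDX2 was under the mean of 10 required for the fit and had only 2 to 8 counts in the KO embryos, near the limits above. The study itself described GATA3 and CDX2 transcript levels in the respective KO embryos as not obviously changed. Of 12 trophectoderm markers, 10 were listed in the table with GATA3 KO and 7 were tested there, of which GATA2 and GATA3 were lower and TFAP2C was higher. Their summed level was 3438 to 7836 in WT control and 3751 to 5415 in GATA3 KO embryos, and 4821 to 12120 in WT control and 2444 to 8056 in CDX2 KO embryos of the other table. Markers of cumulus and granulosa cells, which surround the oocyte, summed to 7.57 to 53.7 in WT control and 3.28 to 23.8 in GATA3 KO embryos, and 8 of those 11 markers, CYP19A1, FOXL2 and AMHR2 among them, were not listed there. In the table with CDX2 KO 10 of the 11 were listed, including those 3, and 1 was tested. They summed there to 26.1 to 95.8 in WT control and 37.6 to 85.8 in CDX2 KO embryos. Y-linked transcripts were present at 29 to 98 counts in the 3 WT control embryos of the first table and at 0, 0, 2 and 68 counts in GATA3 KO embryos 3, 4, 5 and 6. In the second table they were at 46 to 149 counts in the controls and at 0, 0, 0 and 155 counts in CDX2 KO embryos 2, 3, 4 and 5. The labels give no sex, and the presence of Y-linked counts moved with both KO groups.

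PRPS1 and AK4 in GATA3 KO embryos stood about 4 times as high as in WT control embryos, and AK6 stood above the controls by a similar factor from fewer counts. AK3 differed far less. The ring-building enzymes GART, PAICS and ATIC, and IMPDH2, overlapped between the groups. In CDX2 KO embryos none of the adenylate kinases stood apart from the controls, and PAICS was below the controls in all 4 embryos, 1 of them by a very small margin.

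**Figure D1:**
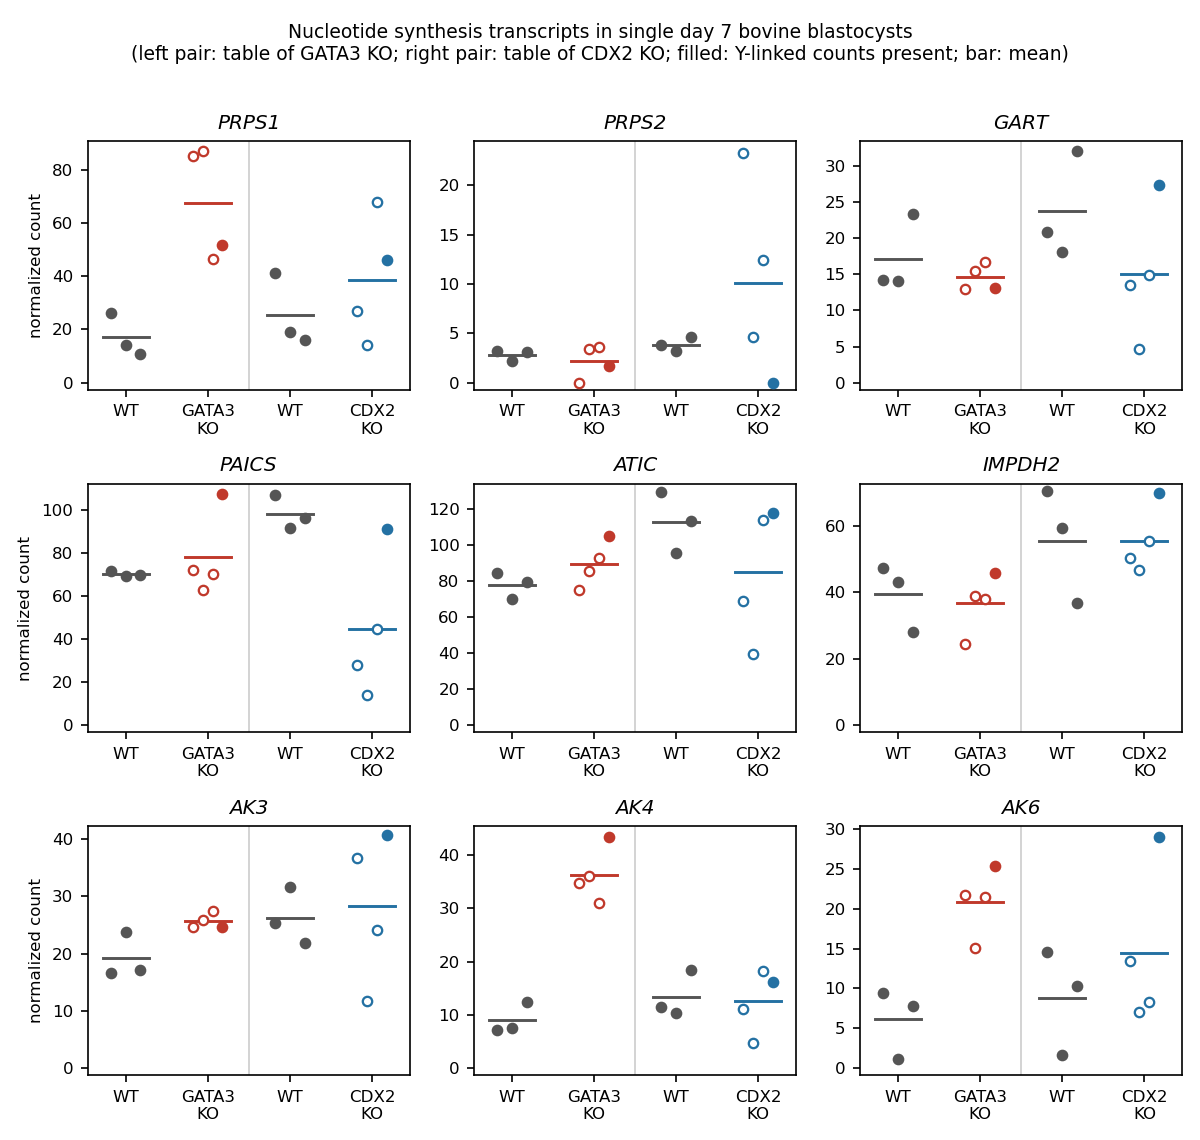
Normalized counts (vertical axis, linear) of the 9 genes, with 1 panel per gene and the 2 tables side by side; points are embryos, filled where Y-linked counts were present, and bars are group means. AK4, AK6 and PRPS1 in GATA3 KO embryos lie above every WT control embryo, with AK4 at 31.0 to 43.5 against 7.10 to 12.4.

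PRPS1 (NM_001046189), on chromosome X in the ARS-UCD2.0 annotation, was at 26.0, 14.1 and 10.9 normalized counts in WT control embryos 1, 2 and 3. In GATA3 KO embryos 3, 4, 5 and 6 it was at 85.4, 87.0, 46.5 and 51.7. The groups did not overlap, and the lowest KO embryo was above the highest control. The mean went from 17.0 ± 7.996 (SD, n = 3) to 67.6 ± 21.6 (SD, n = 4), a ratio of 3.98, and the log2 fold change was 1.97 (SE 0.33), ranked 11 of 4271 tested transcripts from the highest. All log2 fold changes are on the log2(value + 1) scale, which understates changes of low genes. The spread among embryos exceeded what counting alone gives, at 47.1% against 23.8% in WT control and 31.9% against 10.5% in GATA3 KO embryos.

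Because PRPS1 is X-linked, its values stand beside those of other X-linked transcripts. Over 138 tested X-linked transcripts, the median log2 difference from the WT control mean was 1.01, 0.94 and 1.07 in GATA3 KO embryos 3, 4 and 5, and -0.46 in embryo 6, which had Y-linked counts. PRPS1 in embryo 6 was at 51.7 normalized counts. All control embryos had Y-linked counts, and so did only 1 embryo in each KO group. When a term for embryos with Y-linked counts was added to the fit, the KO difference therefore rested on that 1 embryo. Here it set embryo 6 against the controls, with log2 fold changes of 1.64 for PRPS1 and 2.19 for AK4, beside 1.92 for AK4 without the term. No call against the threshold is read from that fit. The part of embryo sex in these differences was not tested.

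PRPS2 (NM_001114152), the second isoenzyme for the same reaction and also X-linked, was close to the limit of detection. It had 4, 2 and 2 counts in WT control embryos and 0, 8, 3 and 2 counts in GATA3 KO embryos, or 2.81 ± 0.561 (SD, n = 3) and 2.16 ± 1.69 (SD, n = 4) normalized counts. It did not reach the mean of 10 normalized counts required for the fit, and the unfitted difference of mean log2 values was -0.48. In the table with CDX2 KO it had 6, 4 and 4 counts in the controls and 19, 2, 15 and 0 counts in the KO embryos. Embryos 2 and 4 of the CDX2 KO group, at 23.3 and 12.4 normalized counts, were above the controls. Embryo 3, at 4.66 from 2 counts, was also above the highest control, at 4.585, but under its own detection limit of 6.99. Embryo 5, the deepest library, was at 0, and the unfitted difference was 0.45.

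GART (NM_001040473), which carries 3 catalytic activities of the ring assembly, was at 14.2, 14.1 and 23.3 normalized counts in WT control embryos and 13.0, 15.5, 16.7 and 13.1 in GATA3 KO embryos. The KO embryos lay within or just below the control range, with a log2 fold change of -0.19 (SE 0.34). PAICS (NM_205813), which carries out a carboxylation and then joins aspartate to the product, was nearly constant among the controls at 71.8, 69.2 and 69.9. Its values in GATA3 KO embryos were 72.4, 62.9, 70.3 and 107.6, so that only embryo 6 stood clearly above the controls, and the log2 fold change was 0.12 (SE 0.25), between -0.06 with quantile normalization and 0.61 with the term for Y-linked counts. ATIC (NM_001075254), which performs the final steps to inosine monophosphate, was at 84.4, 70.3 and 79.3 in the controls and 75.3, 85.3, 92.9 and 105.1 in GATA3 KO embryos. The groups overlapped, with a log2 fold change of 0.19 (SE 0.24) that was 0.43 with the term for Y-linked counts. PPAT, which starts the ring assembly and overlaps the span of PAICS in ARS-UCD2.0, had a log2 fold change of 0.61 (SE 0.31) and did not pass the threshold (limma, adjusted p = 0.261).

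IMPDH2 (NM_001034416) was at 47.3, 43.2 and 27.98 normalized counts in WT control embryos and 24.6, 38.8, 38.1 and 46.0 in GATA3 KO embryos. The ranges overlapped almost fully, and the log2 fold change was -0.10 (SE 0.30). Its direction was not stable, from -0.27 with quantile normalization to 0.08 without GATA3 KO embryo 3. With the term for Y-linked counts, which sets embryo 6 alone against the controls, it was 0.25.

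AK4 (NM_001077933) was at 7.10, 7.57 and 12.4 normalized counts in WT control embryos, from 9, 7 and 8 counts. It was at 34.7, 36.2, 31.0 and 43.5 in GATA3 KO embryos 3, 4, 5 and 6, from 24, 84, 26 and 53 counts. All KO embryos were above all controls, and the lowest KO embryo was more than double the highest control. The mean went from 9.03 ± 2.95 (SD, n = 3) to 36.4 ± 5.26 (SD, n = 4), a ratio of 4.02, with a log2 fold change of 1.92 (SE 0.31), ranked 15 of 4271. The spread among KO embryos, 14.5%, was about that of counting alone, 14.6%. The AK4 span in ARS-UCD2.0 also holds 2 pseudogenes and a tRNA gene, and the library type does not mark strand.

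AK3 (NM_174237), the matrix kinase that prefers GTP, was at 16.6, 23.8 and 17.1 normalized counts in WT control and 24.6, 25.9, 27.4 and 24.6 in GATA3 KO embryos. All 4 KO embryos were above the controls, but embryos 3 and 6 exceeded WT control embryo 2 by under 1 normalized count. The mean went from 19.2 ± 4.02 (SD, n = 3) to 25.6 ± 1.32 (SD, n = 4), with a log2 fold change of 0.42 (SE 0.29).

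AK6 (NM_001105608) was at 9.47, 1.08 and 7.77 normalized counts in WT control embryos, from 12, 1 and 5 counts, and at 21.7, 15.1, 21.4 and 25.5 in GATA3 KO embryos, from 15, 35, 18 and 31 counts. The KO embryos were all above the controls, and WT control embryo 2, with its single count, was under the detection limit. The mean went from 6.11 ± 4.44 (SD, n = 3) to 20.9 ± 4.30 (SD, n = 4), with a log2 fold change of 1.91 (SE 0.51). Without WT control embryo 2 the log2 fold change was 1.17. AK6 shares its locus with TAF9, a subunit of the general transcription factor TFIID. TAF9 was at 26.8, 7.57 and 18.7 normalized counts in WT control and 40.5, 43.9, 27.4 and 41.1 in GATA3 KO embryos, with a log2 fold change of 1.21 (SE 0.36; limma, adjusted p = 0.0699). Both transcripts were lowest in WT control embryo 2, and how reads on their common exons were assigned is not given in the sources used here.

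A transcript passed the threshold at a Benjamini-Hochberg adjusted p of at most 0.05 from limma together with a fold change no smaller than 1.5 or no larger than 0.6. For GATA3 KO embryos 86 of 4271 tested transcripts passed, which is 2.01%, and 66 of them, or 1.55% of those tested, were higher and 20 lower, a split of 48 higher and 57 lower with quantile normalization and 57 and 69 with edgeR. Of the 8 genes described here that entered the fit, AK4 and PRPS1 were among the 66, which is no evidence for either because both were selected on these values. Leaving out either WT control embryo 2 or embryo 3 of the GATA3 KO group took both below the threshold and left 1 transcript past it in all. KO embryos lay above every control for 4 of the 8 (AK4, PRPS1, AK6 and AK3), beside 11.9% of all tested transcripts. None of the 8 had all KO embryos below the controls, beside 7.05% of all tested transcripts. The median log2 fold change of the 8 was 0.31, and that of all tested transcripts was 0.11. Since the genes were selected on this comparison, nothing is read from these counts. In whole embryos, fewer cells of a type and less RNA per cell cannot be told apart.

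**Figure D2:**
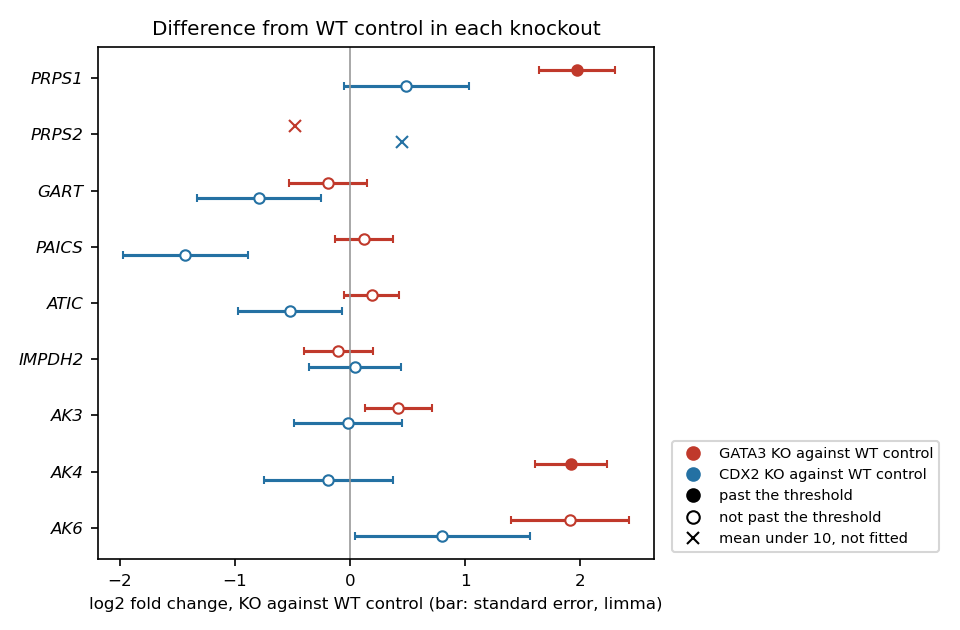
Log2 fold change of KO over WT control on the log2(normalized count + 1) scale (horizontal axis) in each table, with standard errors from limma as bars for the 8 fitted genes, filled points past the threshold, and crosses for PRPS2, the unfitted difference of mean log2 values. In GATA3 KO embryos PRPS1, AK4 and AK6 lie near 1.9 to 2.0 and the other 5 between -0.19 and 0.42, and in CDX2 KO embryos PAICS is lowest at -1.43.

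Ratios of counts within an embryo do not depend on the size factor. The pairs came from genes chosen on these data, and how many other pairs separate the groups was not counted. AK4 had 42.9, 31.8 and 72.7 counts per 100 counts of AK3 in WT control embryos 1, 2 and 3. In GATA3 KO embryos 3, 4, 5 and 6 it had 141.2, 140, 113 and 176.7. AK4 was thus below AK3 in counts in every control and above it in every GATA3 KO embryo, although counts of different transcripts also depend on transcript length, so only the shift between groups can be read. PRPS1 had 30.8, 20 and 13.7 counts per 100 counts of ATIC in the controls and 113.5, 102, 50 and 49.2 in the GATA3 KO embryos. These ranges did not overlap, with embryos 3 and 4 at roughly double the ratio of embryos 5 and 6. PAICS per 100 counts of ATIC was 85.1, 98.5 and 88.2 in the controls and 96.2, 73.7, 75.6 and 102.3 in the GATA3 KO embryos, where the ranges overlapped.

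**Figure D3:**
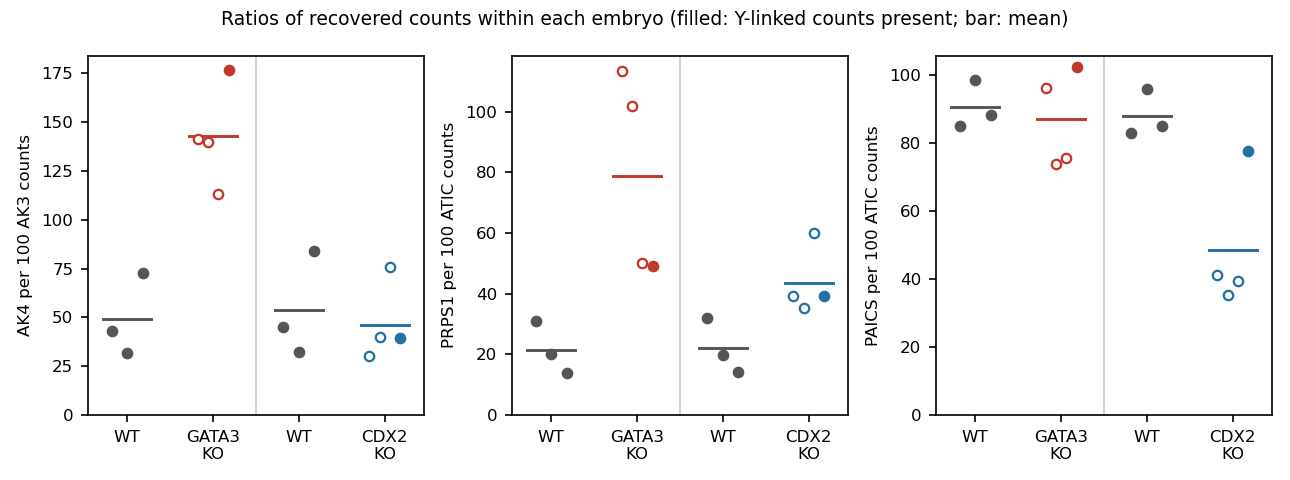
Counts of one gene per 100 counts of another in the same embryo (vertical axis) for 3 pairs, with the embryos of each table as points, filled where Y-linked counts were present, and group means as bars. AK4 per 100 AK3 is at 113 to 176.7 in GATA3 KO embryos against 31.8 to 72.7 in their controls, and PAICS per 100 ATIC is at 35.3 to 77.6 in CDX2 KO embryos against 82.8 to 95.9.

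The transcripts with profiles closest to AK4 and PRPS1 were found by the root mean square difference of centred log2 values over the 7 embryos of the table with GATA3 KO. For AK4 these were SRP9, a subunit of the signal recognition particle (0.27), UTP18, a factor of small ribosomal subunit assembly (0.29), and ZFAND6 (0.32). For PRPS1 they were TMED2, a cargo receptor of the early secretory pathway (0.23), DPPA2, a gene of early embryos and germ cells (0.25), and MRPL39, a mitochondrial ribosomal protein (0.30). Their log2 fold changes lay between 1.64 and 2.02. Values near those of AK4 and PRPS1 follow from how these transcripts were picked, so nothing is read from them.

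The other genes of nucleotide metabolism came from 9 lists by textbook role, which hold 83 genes besides those described above. In the table with GATA3 KO 66 of these were listed and 40 were tested. None rose past the threshold and 2 fell, CAD and NME3, with limma, edgeR and DESeq2 alike, so that 2 of 40 passed with limma beside 2.01% of all tested transcripts. At an unadjusted p under 0.05 from limma 2 were higher and 2 lower, 4 of 40 beside 965 of 4271 for all tested transcripts. The median log2 fold change of the 40 was 0.24, beside 0.11 for all tested transcripts, and 22 of the 40 were above that overall median. By list, the medians of genes other than the 9 were 0.33 for 5 genes of purine synthesis, -0.11 for 3 of pyrimidine synthesis and 0.29 for 7 of salvage. They were -0.34 for 5 nucleoside mono- and diphosphate kinases, -0.22 for 3 genes of deoxynucleotide supply and 0.12 for 7 of folate and serine one-carbon supply. They were 0.23 for 7 genes of the pentose phosphate pathway and -0.23 for 2 of purine breakdown.

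CAD, which carries out the opening steps of pyrimidine synthesis, was at 20.52, 48.6 and 38.9 normalized counts in WT control and 15.9, 12.5, 13.1 and 9.85 in GATA3 KO embryos. All KO embryos were below the controls, with a log2 fold change of -1.35 (SE 0.34; limma, adjusted p = 0.0468). NME3, a nucleoside diphosphate kinase, was at 31.6, 32.4 and 37.3 in the controls and 5.79, 17.2, 7.15 and 18.9 in the KO embryos, with a log2 fold change of -1.54 (SE 0.39; limma, adjusted p = 0.0468). Both adjusted p values are just inside the threshold, and when each embryo was left out in turn CAD passed in 1 of 7 fits and NME3 in 2 of 7. The log2 fold changes in those fits were -1.70 to -1.10 for CAD and -1.79 to -1.27 for NME3. Neither passed with a pseudocount of 0.1. UMPS, DCK and RPIA had all 4 KO embryos above the controls but did not pass, and these 3 of 40 stand beside 11.9% of all tested transcripts with that pattern. UMPS and DCK had limma adjusted p values of 0.247 and 0.258. RPIA, which supplies ribose phosphate from the pentose phosphate pathway, came nearest, at a log2 fold change of 0.89 (SE 0.27; limma, adjusted p = 0.0684).

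**Figure D4:**
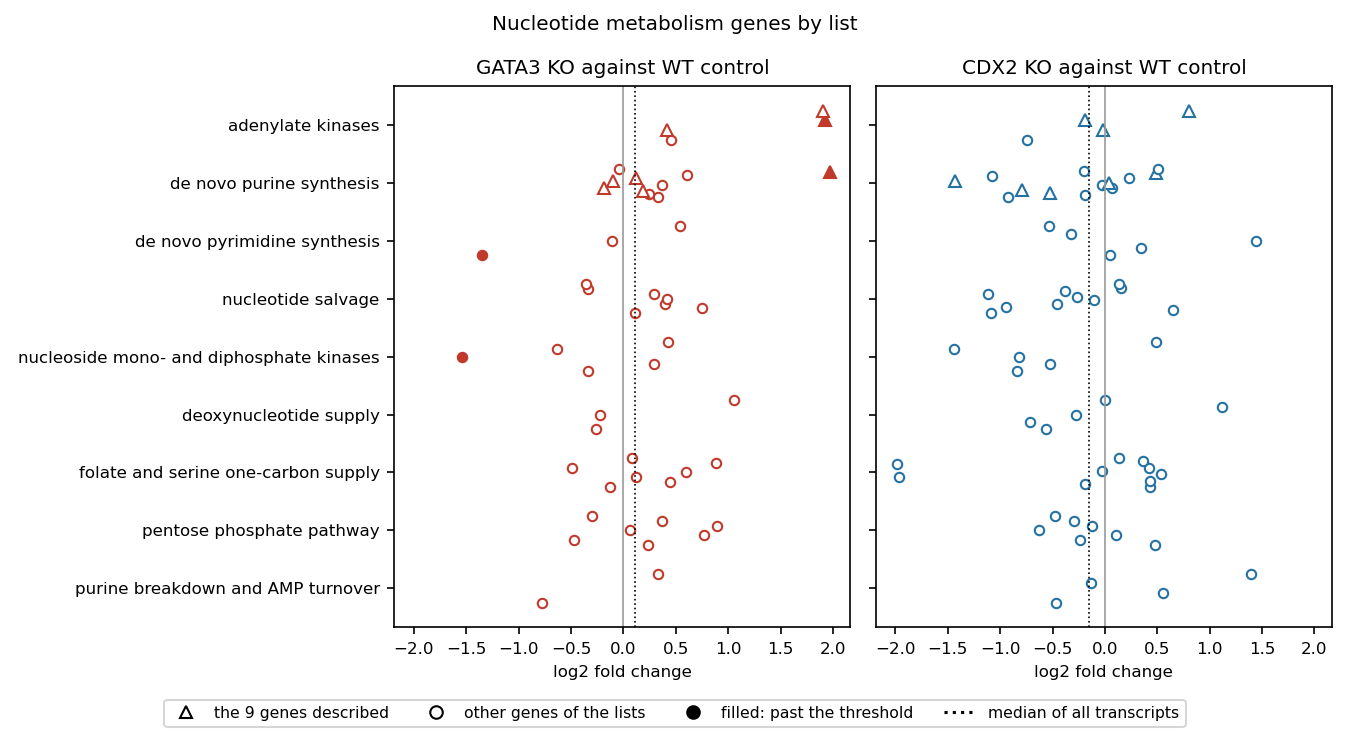
Log2 fold change of KO over WT control for each tested gene of the 9 nucleotide metabolism lists, 1 row per list, with the genes described here as triangles and other genes as circles; filled symbols passed the threshold and the dotted line is the median of all tested transcripts. In GATA3 KO embryos AK4 and PRPS1 are the filled symbols on the right, and CAD and NME3 those on the left at -1.35 and -1.54.

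The comparison of CDX2 KO with WT control used the same control embryos, so its values are set beside those above and not counted as independent of them. With limma 0 of 5719 tested transcripts passed the threshold (0%), while 187 had an unadjusted p under 0.05, edgeR passed 1 and DESeq2 passed 10. None of the 8 fitted genes described here was past it with any of these tools. PAICS was at 107.2, 91.6 and 96.3 normalized counts in WT control and 28.2, 13.98, 44.8 and 91.3 in CDX2 KO embryos 2, 3, 4 and 5. All 4 KO embryos were below the controls, a pattern held by 3.36% of all tested transcripts, but embryo 5 was within 1 normalized count of WT control embryo 2. The mean went from 98.4 ± 7.999 (SD, n = 3) to 44.6 ± 33.6 (SD, n = 4), a log2 fold change of -1.43 (SE 0.54). With the term for Y-linked counts in the fit it was -0.10, which is embryo 5 alone against the controls.

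GART was at 20.9, 18.2 and 32.1 normalized counts in WT control and 13.5, 4.66, 14.9 and 27.4 in CDX2 KO embryos, where 3 of 4 were below the controls. The value of 4.66, in embryo 3, came from 2 counts and was under its detection limit of 6.99. The log2 fold change of GART was -0.79 (SE 0.54). ATIC was at 129.4, 95.6 and 113.5 in the controls and 68.6, 39.6, 113.6 and 117.6 in the KO embryos, where 2 of 4 were below, with a log2 fold change of -0.52 (SE 0.45). With the term for Y-linked counts, which sets embryo 5 alone against the controls, GART was at 0.24 and ATIC at 0.07. All 3 ring-building enzymes were lowest in embryo 3, the library with the fewest counts, and their KO values spread by 44.1% to 75.4%, against 9.66% to 22.1% from counting alone. PAICS per 100 counts of ATIC was 82.8, 95.9 and 84.9 in the controls and 41.1, 35.3, 39.4 and 77.6 in the KO embryos, all 4 below the controls. Embryo 5, the only CDX2 KO embryo with Y-linked counts, was the closest to them.

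AK4 was at 11.4, 10.3 and 18.3 normalized counts in WT control and 11.03, 4.66, 18.2 and 16.1 in CDX2 KO embryos, with a log2 fold change of -0.19 (SE 0.56). The value of 4.66, in embryo 3, came from 2 counts and was under its detection limit of 6.99. The groups overlapped, as they did for AK3 at -0.02 (SE 0.47), AK6 at 0.80 (SE 0.76) and IMPDH2 at 0.04 (SE 0.40). With the term for Y-linked counts, which sets embryo 5 alone against the controls, AK4 was at 0.30, AK3 at 0.63 and AK6 at 1.96. The value for AK6 was 0.01 without WT control embryo 2 and 1.31 without WT control embryo 1. PRPS1 was at 41.2, 19.0 and 16.1 in the controls and 27.0, 13.98, 68 and 46.2 in the KO embryos, with a log2 fold change of 0.49 (SE 0.54). Embryo 4 was highest for PRPS1, and it was also highest for X-linked transcripts, with a median log2 difference of 1.11 over 164 transcripts, beside 0.56, 0.18 and 0.15 in embryos 2, 3 and 5. PRPS1 per 100 counts of ATIC was 31.9, 19.8 and 14.1 in the controls and 39.3, 35.3, 59.9 and 39.3 in the KO embryos. By that ratio the KO embryos were all above the controls, while by normalized count they overlapped. ATIC, the divisor, was itself below the controls in embryos 2 and 3, at 68.6 and 39.6 normalized counts.

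None of the 8 fitted genes had all CDX2 KO embryos above the controls, beside 2.52% of all tested transcripts. Their median log2 fold change was -0.10, and that of all tested transcripts was -0.15. Of the other 83 list genes 72 were listed and 55 were tested, 0 passed by limma, edgeR or DESeq2, 2 had an unadjusted p under 0.05 from limma, and their median log2 fold change was -0.19. PSAT1 of serine synthesis at -1.99 (SE 0.62), ADK of adenosine salvage at -1.09 (SE 0.42) and NME3 at -0.82 (SE 0.45) had all 4 KO embryos below the controls, with limma adjusted p values of 0.900 each. These 3 of 55 stand beside 3.36% of all tested transcripts. CAD had a log2 fold change of 0.05 (SE 0.44) there, and whether its change differed between the KO groups was not tested.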

How the data were processed

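RNA from 11 single bovine blastocysts had been sequenced by a Smart-seq2 procedure. According to the labels and the methods of the study, the authors used Trimmomatic for trimming, HISAT2 for mapping to ARS-UCD1.2, featureCounts for counts per RefSeq transcript and DESeq2 for normalization. The deposited values are a signal, read counts divided by a size factor for each embryo, in 2 tables normalized separately. Fold changes and p-values of the authors' own comparisons in those tables were not used. Whole reads were recovered for 100.0% of values within a tolerance of 0.1 reads. Transcripts were named from RefSeq's gene table for ARS-UCD2.0, 98.6% in each table, with the transcript of highest mean where a gene had several.

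Within each table, log2(normalized count + 1) of transcripts with a mean of at least 10 was fitted with limma 3.58.1 in R 4.3.3, with a trended prior, and p-values were adjusted by the Benjamini-Hochberg method over all tested transcripts. The alternatives were pseudocounts of 0.1 and 5, no filter, quantile normalization, a minimum mean of 100, median-ratio rescaling, edgeR 4.0.16 and DESeq2 1.42.0 on recovered counts, a covariate for at least 3 Y-linked counts, and leaving out each embryo. The code was tested on simulated data. The 9 genes and the lists of other genes and markers were chosen with earlier results of these data known. Named genes were the 9, list genes that passed the threshold, the 3 nearest profiles to AK4 and PRPS1, and the targeted genes. TAF9, PPAT, RPIA, UMPS, DCK, PSAT1 and ADK were added after their values were seen. Depth per embryo is given with the results.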

Additional observations from a re-analysis of the deposited data

How the results depend on the processing

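No paired analysis was possible because the numbers in the KO column names differ from the replicate numbers of the labels and match them only by group. In GATA3 KO embryos the count of transcripts past the threshold, 86 (66 higher, 20 lower), became 145 with a pseudocount of 5, 172 with no filter, 37 at a mean of at least 100, 158 with DESeq2 (72 higher, 86 lower) and 1 to 304 when each embryo was left out. The split moved to 48 higher and 57 lower with quantile normalization, which shifted the median log2 fold change from 0.11 to 0.00, and to 57 higher and 69 lower with edgeR. As a description, AK4 and PRPS1 were past the threshold in 7 alternatives, all that fitted them apart from the Y-linked covariate. Calls with that covariate are not counted, because its KO difference rests on 1 KO embryo. Of the genes described, 0 passed at a mean of at least 100, where none of them was fitted. When each embryo was left out 0 to 3 passed, with AK4 at 1.79 to 2.15 and PRPS1 at 1.71 to 2.30, and both lost the threshold without WT control embryo 2 and without GATA3 KO embryo 3. AK6 passed without WT control embryo 1, with a pseudocount of 5 and with no filter. Of the other list genes, CAD and NME3 gave way to 0 with a pseudocount of 0.1. At a mean of at least 100, where neither was fitted, 0 of 3 tested passed. Between 0 and 4 passed when each embryo was left out. They were 0 without WT control embryo 2 or 3 and without GATA3 KO embryo 3, 4 or 5, and 4 without WT control embryo 1, with TYMS and RPIA added. In CDX2 KO embryos the count of 0 became 1 with a pseudocount of 5, a mean of at least 100, rescaling by median ratios or edgeR, 2 with no filter or quantile normalization, 10 with DESeq2 and 0 to 1 when each embryo was left out. There the Y-linked covariate, which left embryo 5 alone for the KO difference, gave AK3 0.63 and AK6 1.96. PAICS ran from -1.87 without CDX2 KO embryo 5 to -0.99 without embryo 3. The difference of the CDX2 gene was -1.31 to -0.91 when each embryo was left out, with exact permutation p values of 0.0667 or 0.1, the smallest that so few embryos allow. Why the values moved was not tested. Genes with few counts, AK4, AK6 and PRPS2 in particular, are limited by depth.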
